A study of Homo sapiens with 6 samples.

Results

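The genes described here are the nuclear genes of mitochondrial complex I, taken from the count table by name. A row was a member when its symbol began with NDUF followed by A, B, C, S, V or AF and a number, and when it was neither a pseudogene nor an antisense row. The rule found 46 of 54261 gene rows. Of these, 36 encode subunits of complex I, 7 are assembly factors (NDUFAF1 to NDUFAF7), and 3 carry the name without being subunits of the complex: NDUFA4, which is associated with complex IV, its paralog NDUFA4L2, and the readthrough locus NDUFC2-KCTD14. The RNA came from 786-O, an established human cell line from a clear-cell renal carcinoma. The control libraries were 786-O and the resistant libraries were 7R, a line of 786-O labelled as resistant to sunitinib (a drug that blocks receptor tyrosine kinases), with 3 libraries of total RNA in each group. The labels give no clone number, no drug dose and no statement that drug was present at harvest, and they do not say whether the libraries of a line were separate cultures, so the spread behind each p-value below is that of the libraries and may be technical.

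Complex I oxidises NADH, passes the electrons through flavin and iron-sulfur clusters to ubiquinone, and pumps protons across the inner mitochondrial membrane. Its matrix arm holds the nuclear-encoded core subunits that carry the cofactors. Its membrane arm is built around subunits encoded by mitochondrial DNA (the MT-ND genes), which are wrapped by small supernumerary subunits from the nucleus. Assembly factors build the modules and are not part of the finished enzyme. In clear-cell renal carcinoma, loss of VHL stabilises hypoxia-inducible factors, and respiration in these tumours is known to be low.

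Library totals ranged from 37919629 to 52221491 counts, and 16642 genes passed the filter on low counts. Resistant replicate 1 stood apart within its line: chi-square per degree of freedom was 62.9 and 60.1 in its pairs with the other resistant libraries, 8.94 between those, and 12.4 to 35.5 between control libraries. The extraction text in the labels names a brain region, so markers were checked. All 8 renal and epithelial markers on the list (PAX8, PAX2, KRT8 and others) were tested, with summed levels of 3169 to 3787 CPM (a count divided by the scaled library total) in control and 1383 to 1706 CPM in resistant libraries. The neuronal markers NEFM, GAD2 and STMN2, the glial markers MOG and P2RY12, and the leukocyte markers PTPRC and CD3E had 0 counts in all 6 libraries. Other markers on these lists had counts. Mean SNAP25 was 3.32 CPM in control and 12.9 CPM in resistant libraries, and mean GAD1 was 4.27 and 1.86 CPM. AQP4 had 0 counts in control and 12, 17 and 17 counts in resistant libraries. The 8 blood and endothelial markers summed to 0.0227 to 1.48 CPM in control and 1.30 to 2.20 CPM in resistant libraries. The 10 neuronal markers summed to 106 to 120 CPM in control and 73.3 to 93.0 CPM in resistant libraries, most of it NEFL, and the 9 glial markers to 22.5 to 27.4 and 38.0 to 41.7 CPM, most of it MBP. The part of any of these in the results was not tested.

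Many nuclear respiratory genes are known to share promoter motifs, so the sequence upstream of a few members is shown first. RefSeq windows on GRCh38.p14 (250 bases before to 50 after an annotated start) were found for 31 of the 36 subunits and 6 of the 7 assembly factors. They were searched on both strands for a motif of the nuclear respiratory factor NRF1 (GCGCA, any base, then GCGC), one of the ETS family, to which GABP belongs (CCGGAAG), and one of YY1 (AAGATGGC). The sequences below are the 250 bases before the start, in the direction of the gene and with matches in capitals. They are the windows of NDUFB4 and NDUFB7, 2 subunits that were lower in resistant libraries before and after the adjustment for base composition and transcript length described below, of NDUFA11, whose fall was lost on that adjustment, and of the assembly factor NDUFAF4, which was called lower only after that adjustment. They lie at chr3:120596086-120596335 (plus strand), chr19:14572067-14572316 (minus strand), chr19:5903791-5904040 (minus strand) and chr6:96897892-96898141 (minus strand).
NDUFB4: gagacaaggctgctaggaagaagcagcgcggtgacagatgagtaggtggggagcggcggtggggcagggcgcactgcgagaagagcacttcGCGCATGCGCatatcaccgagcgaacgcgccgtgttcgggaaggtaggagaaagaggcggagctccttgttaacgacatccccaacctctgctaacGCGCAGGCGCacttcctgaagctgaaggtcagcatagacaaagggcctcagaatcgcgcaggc
NDUFB7: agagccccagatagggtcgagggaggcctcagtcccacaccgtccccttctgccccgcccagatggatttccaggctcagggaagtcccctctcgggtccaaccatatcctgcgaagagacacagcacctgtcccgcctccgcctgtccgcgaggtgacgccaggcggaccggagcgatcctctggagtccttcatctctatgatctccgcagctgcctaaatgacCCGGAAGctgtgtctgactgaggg
NDUFA11: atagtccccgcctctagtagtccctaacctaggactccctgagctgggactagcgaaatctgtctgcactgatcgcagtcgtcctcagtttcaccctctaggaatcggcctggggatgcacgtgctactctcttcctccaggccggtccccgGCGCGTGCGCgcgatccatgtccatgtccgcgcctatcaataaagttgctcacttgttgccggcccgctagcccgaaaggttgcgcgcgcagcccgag
NDUFAF4: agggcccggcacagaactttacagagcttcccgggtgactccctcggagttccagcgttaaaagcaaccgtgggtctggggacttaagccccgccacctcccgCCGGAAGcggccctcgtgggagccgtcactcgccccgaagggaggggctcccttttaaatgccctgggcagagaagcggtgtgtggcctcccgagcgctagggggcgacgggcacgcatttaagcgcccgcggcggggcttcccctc
The capitals mark a pair of NRF1 matches in NDUFB4, 1 NRF1 match in NDUFA11 and 1 ETS match each in NDUFB7 and NDUFAF4.

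The NRF1 motif was found in 6 of 31 subunits (19.4%), against 12.8% of 10456 tested genes with a window and 6.98% of all 27305 genes in the RefSeq table. The YY1 motif was found in 7 subunits (22.6%), against 6.24% of tested and 3.52% of all genes. The ETS motif was found in 5 subunits (16.1%), against 21.3% of tested and 12.2% of all genes. Among the 6 assembly factors with a window, NDUFAF5 held an NRF1 match, NDUFAF4 an ETS match, and none a YY1 match. The ETS motif ends and the YY1 motif begins in AAG, so the 2 can overlap, but no member held both. A match is a description of the sequence, not of a bound site. Of the subunits with an NRF1 match, NDUFA8, NDUFA9, NDUFA11 and NDUFB4 were lower in the resistant line before any adjustment, NDUFA12 was not called and NDUFA3 was not tested. Of those with a YY1 match, NDUFA7, NDUFA9, NDUFB8 and NDUFS7 were lower, NDUFS4 was not called, and NDUFA3 and NDUFA6 were not tested. Of those with an ETS match, NDUFA13, NDUFB7 and NDUFS3 were lower, NDUFA1 was not called and NDUFS1 was higher. Before adjustment 64.7% of all tested subunits and 36.9% of all genes were lower. After adjustment NDUFA7, NDUFA11, NDUFA13, NDUFB8 and NDUFS7 lost their calls, NDUFA12 and NDUFS4 were lower and NDUFA1 was higher. Whether a motif goes with a call was not tested.

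Most nuclear subunits of complex I had fewer transcripts in the resistant line. Of the 36 subunits, 34 passed the filter, and 22 of these were lower, 2 were higher and 10 were not called. In the comparison of all genes, 76.2% were called at an adjusted p of 0.05 (39.3% higher and 36.9% lower), so a call by itself was common, and 64.7% of tested subunits were lower. The median log2 fold change (resistant over control) of tested subunits was -0.68, with quartiles of -1.19 and -0.11, beside 0.05 over all genes. At least 2-fold falls were called for 12 subunits, and for 22.4% of all genes. The libraries of the 2 groups did not overlap for 24 of 34 subunits, beside 80.3% of all genes.

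The assembly factors did not share that pattern. Of 7, all tested, 3 were higher (42.9%, beside 39.3% of all genes), 1 was lower (14.3%, beside 36.9%) and 3 were not called. The share higher was thus near that of all genes, and the share lower was below it. Their median log2 fold change was 0.40, beside 0.05 over all genes. Control and resistant libraries were fully separated in 4 factors, while such separation was seen in 80.3% of everything tested. Summed over the 36 subunit rows, the level was 1386, 1508 and 1505 CPM in the control libraries and 929, 814 and 797 CPM in the resistant libraries. Summed over the 7 assembly factor rows, it was 80.1, 92.1 and 84.5 CPM in control and 91.9, 91.9 and 83.3 CPM in resistant libraries. The subunit sum was lower in every resistant library than in any control library, and the factor sums overlapped. The ratio of the 2 sums was 17.3, 16.4 and 17.8 in control and 10.1, 8.86 and 9.56 in resistant libraries. The factor sum held changes in both directions. Mean NDUFAF3 was 34.0 CPM in control and 13.2 CPM in resistant libraries. Mean NDUFAF5 was 8.74 and 16.6 CPM, mean NDUFAF6 15.5 and 21.7 CPM, and mean NDUFAF7 9.09 and 17.6 CPM. Sums weight abundant rows most, and they are not adjusted for the base composition described below. In bulk RNA, fewer cells of a kind and less RNA per cell cannot be told apart.

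**Figure D1:**
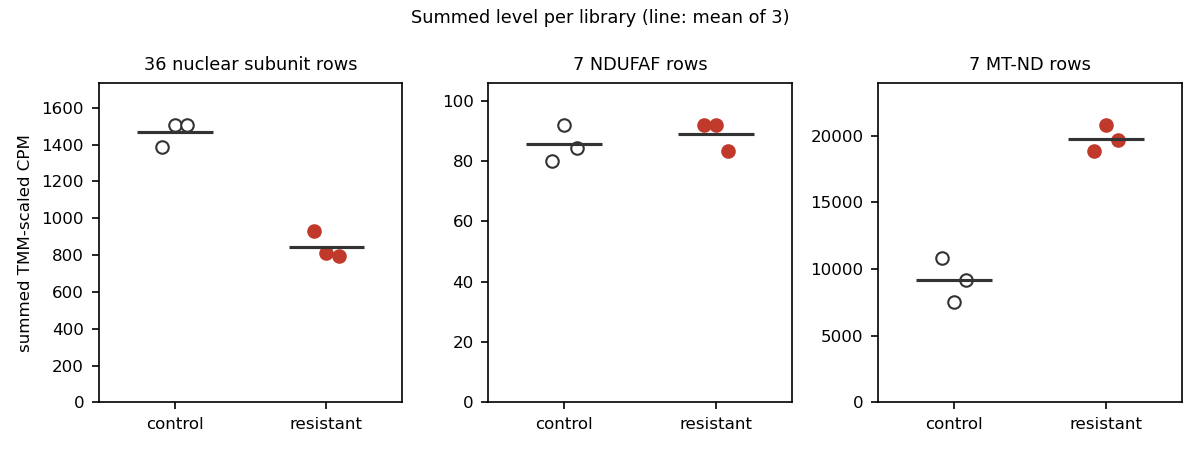
Summed TMM-scaled CPM per library (y axis, from 0) for the 36 nuclear subunit rows, the 7 NDUFAF rows and the 7 mitochondrial MT-ND rows. Open circles are control libraries, filled circles resistant libraries and lines the means of 3. The nuclear subunit sum runs from 1386 to 1508 CPM in control and from 797 to 929 CPM in resistant libraries, the factor sums overlap, and the MT-ND sum is higher in every resistant library. The sums are not adjusted for GC content or length.

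Both of these descriptions rest on the scaling. With library size alone in place of TMM factors, 75.5% of all genes were called (47.2% higher and 28.4% lower) and their median moved from 0.05 to 0.39. The subunits then gave 9 higher and 18 lower with a median of -0.33, and the assembly factors gave 5 higher and 1 lower with a median of 0.74. The subunits NDUFB8, NDUFB9, NDUFC1 and NDUFC2 were then no longer called lower, and NDUFA1, NDUFA10, NDUFB3, NDUFB5, NDUFS4, NDUFS5 and NDUFV2 were called higher. The assembly factors NDUFAF1 (0.74) and NDUFAF2 (0.54) were called higher as well.

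The fold changes also followed base composition. The rank correlation (Spearman) of log2 fold change with transcript GC content was -0.68 across the 14261 tested genes for which GC content was known. It was -0.78 over the 34 subunits and -0.81 over the 41 subunits and assembly factors together. These are correlations across genes of the same libraries and not across independent replicates. Assembly factors had AT-richer transcripts than subunits (median GC content 44.3% against 50.8%) and longer ones (1869 against 764 bases). Genes were sorted into 10 bins of equal size by GC content. The bin medians of all genes ran from 1.31 at the AT-rich end to -1.35 at the GC-rich end. The median of the members was -0.0056 in bin 2 (3 genes), where all genes gave 1.13. In bin 6 it was -0.74 (7 genes), where all genes gave -0.27, and in bin 10 it was -1.48 (5 genes), where all genes gave -1.35. The members had lower medians than all genes of like composition in bins 1, 2, 4, 5 and 6, and medians near those of all genes in bins 7, 9 and 10. In bin 3 (4 genes) the median of the members was 0.94, where all genes gave 0.82. In bin 8 (2 genes) it was -0.52, where all genes gave -0.96. The part of library chemistry in this trend was not tested.

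**Figure D2:**
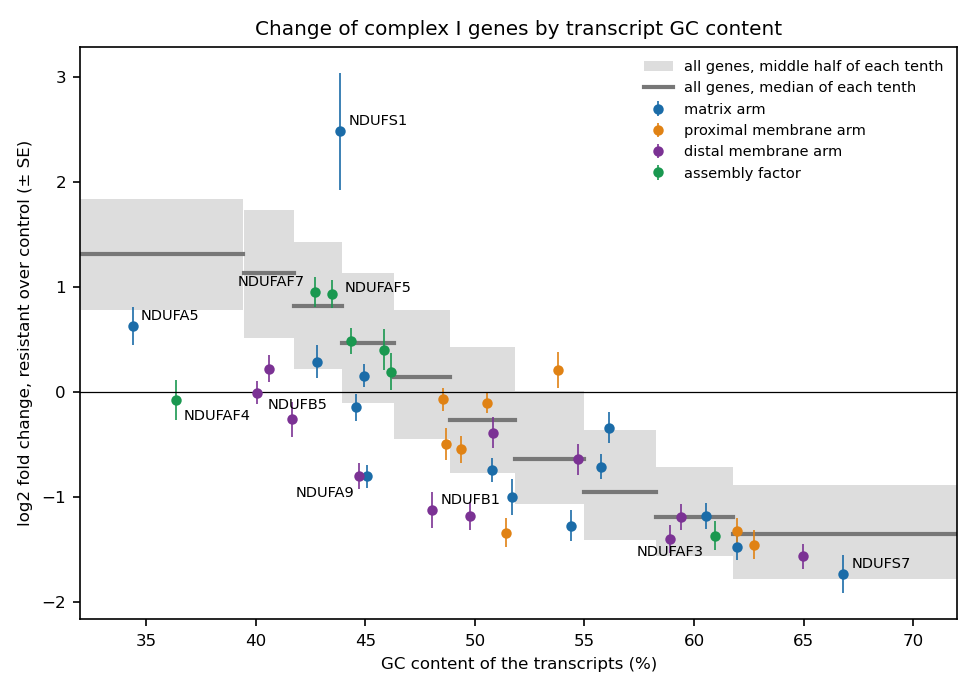
Log2 fold change, resistant over control (y axis, bars are SE), against median transcript GC content (x axis, %) for 33 subunits by position in the enzyme and 7 assembly factors. Grey lines and boxes give the median and the interquartile range of all genes in 10 bins of GC content. The grey medians run from 1.31 down to -1.35, and NDUFA5, NDUFAF4, NDUFB5, NDUFA9 and NDUFB1 lie below the box at their GC content.

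The trend with GC content and with transcript length was therefore taken out of each library, and the test was repeated on the 14261 genes. After this adjustment 66.9% of genes were called (34.3% higher and 32.6% lower). Of the 34 subunits, 22 were lower, 4 were higher and 8 were not called, with a median of -0.35 beside 0.02 over all genes. The assembly factors then gave 1 higher, 2 lower and 4 without a call, with a median of 0.10. At least 2-fold falls were called for 7 subunits, and for 9.18% of all genes. The 22 lower subunits were not the same ones: 14 were lower before and after, 8 lost their call, and 8 others were called lower after adjustment alone. In what follows, adjusted values are adjusted for GC content and length. With GC content alone, 18 subunits were lower (52.9%, beside 32.4% of all genes) and 3 higher (8.82%, beside 34.1%). The subunit median was -0.29, beside 0.02 over all genes. Of the 43 members tested, 7 then lost the call they had with GC content and length, namely NDUFA10, NDUFB7, NDUFB10, NDUFS5, NDUFS8, NDUFAF3 and NDUFAF7, and no member gained one.

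**Figure D3:**
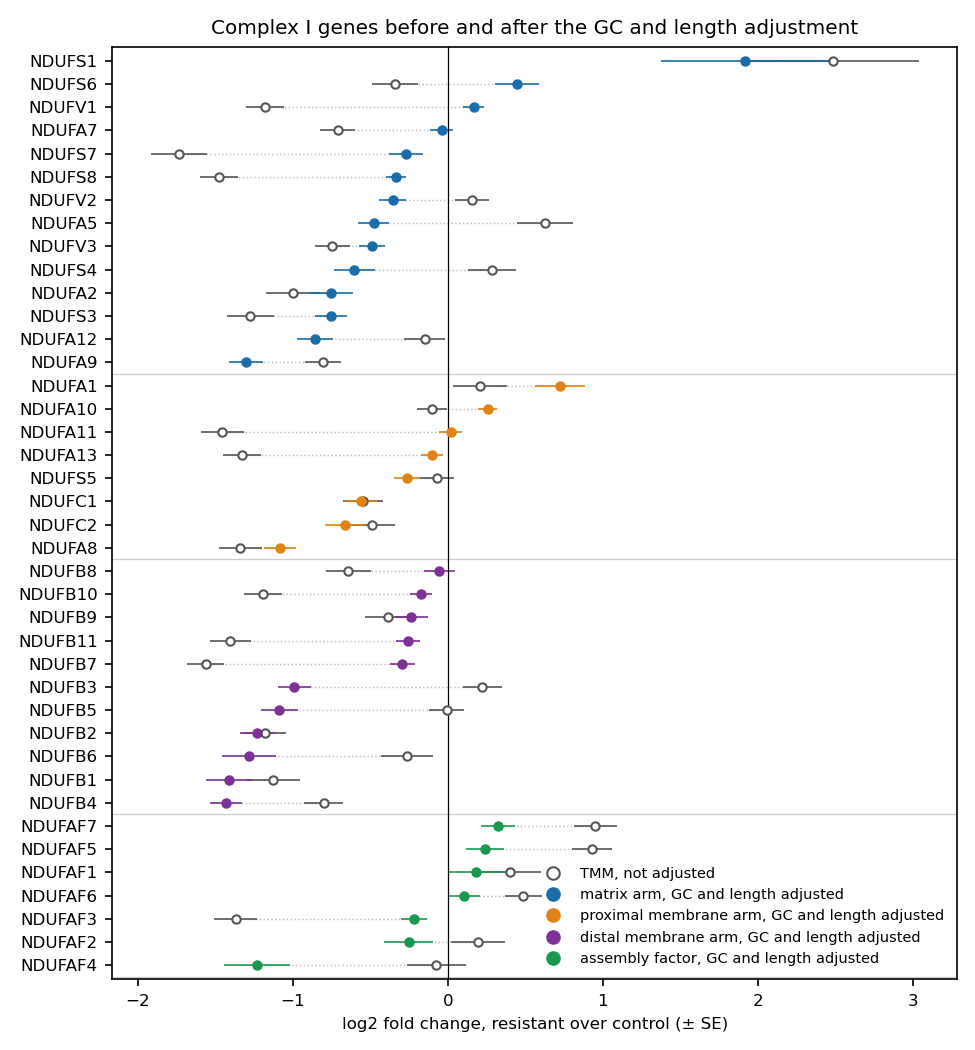
Log2 fold change, resistant over control (x axis, bars are SE), of 33 tested subunits and 7 assembly factors before (open circles) and after (filled circles) the adjustment for GC content and length, grouped by position in the enzyme. Dotted lines join the values of a gene. All 11 subunits of the distal membrane arm lie below 0 after adjustment, from -0.05 to -1.43, while NDUFV1 and NDUFA11 move from below 0 to just above it.

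The 7 core subunits, which carry the flavin, the iron-sulfur clusters and the quinone site, gave 5 lower, 1 higher and 1 without a call. The share lower was 71.4%, beside 36.9% of all genes. After adjustment 3 were lower (42.9%, beside 32.6% of all genes), 1 was higher and 3 were not called, with a median of -0.27. With GC content alone 2 were lower (28.6%, beside 32.4% of all genes), with a median of -0.14. NDUFS8, a ferredoxin-like subunit with iron-sulfur clusters next to the membrane, measured 123, 135 and 146 CPM in control and 55.4, 43.8 and 45.8 CPM in resistant libraries. It fell by 1.48 ± 0.12 on the log2 scale (SE, n = 3 libraries per group, adjusted p = 6.2e-07), and by 0.34 ± 0.06 after adjustment (adjusted p = 0.000711). With GC content alone the value was -0.14 and was not called (adjusted p = 0.0885). Per kilobase of transcript it was the most abundant member in control, at 235 CPM per kb, and it was at 84.5 CPM per kb in the resistant line.

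NDUFS7, which holds the last iron-sulfur cluster before the quinone, had the largest fall of any core subunit. Its level was 35.3, 36.6 and 37.2 CPM in control and 14.7, 8.41 and 9.61 CPM in resistant libraries, a log2 fold change of -1.73 ± 0.18 (adjusted p = 3.15e-06). Every resistant library was below every control library. After adjustment the value was -0.27 ± 0.11 and did not pass (adjusted p = 0.0503); without resistant replicate 1 it was -0.41 and passed (adjusted p = 0.00168), and with the replicate number as a block it was -0.28 and passed (adjusted p = 0.0396). Annotated exons of other genes on the opposite strand cover 49.1% of its exonic bases, and the strand setting of the counts is not given in the sources used here.

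NDUFS3, a matrix arm subunit that joins early in assembly, was lower by both measures. It measured 30.1, 28.8 and 34.7 CPM in control and 15.8, 11.1 and 11.8 CPM in resistant libraries. The log2 fold change was -1.27 ± 0.15 (adjusted p = 8.43e-06), and -0.75 ± 0.10 after adjustment (adjusted p = 5.58e-05). Among core subunits, NDUFS3 and NDUFS8 alone were lower before and after adjustment for GC content and length, and NDUFS3 was also lower with GC content alone (-0.58, adjusted p = 0.000605).

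NDUFV1 binds the flavin and is the site where NADH enters. It was at 103, 106 and 112 CPM in control and 54.7, 41.4 and 45.6 CPM in resistant libraries (log2 fold change -1.18 ± 0.12, adjusted p = 2.86e-06). The groups were well apart, but the adjusted value was 0.17 ± 0.07 and was not called (adjusted p = 0.0528).

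NDUFV2, the iron-sulfur partner of NDUFV1, was not called before adjustment and was lower after it. Its level was 29.1, 28.7 and 30.0 CPM in control and 34.6, 33.8 and 29.6 CPM in resistant libraries, groups that overlap (log2 fold change 0.16 ± 0.11, adjusted p = 0.212). The adjusted value was -0.36 ± 0.09 (adjusted p = 0.00368). NDUFV1 and NDUFV2 are neighbours in the enzyme, and of the pair only NDUFV1 was called before adjustment and only NDUFV2 after it. Their transcripts had GC contents of 60.5% and 44.9%.

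NDUFS1, the largest core subunit, was called higher but at very low counts. It had 14, 25 and 25 counts in control and 30, 190 and 127 counts in resistant libraries, or 0.482 ± 0.143 CPM (SD, n = 3) against 2.71 ± 1.89 CPM. The log2 fold change was 2.48 ± 0.56 (adjusted p = 0.00141), and 1.92 ± 0.54 after adjustment (adjusted p = 0.00828). Resistant replicate 1 lay close to the controls, and without it the unadjusted value was 2.93. Without resistant replicate 2 the adjusted value was 1.39 and lost its call (adjusted p = 0.0515). For a core subunit this level was low: the other 6 had control means between 29.3 and 135 CPM.

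Of the other 27 subunits tested, 17 were lower (63.0%, beside 36.9% of all genes), 1 was higher and 9 were not called. After adjustment 19 were lower (70.4%, beside 32.6% of all genes), 3 were higher and 5 were not called. With GC content alone 16 were lower (59.3%, beside 32.4% of all genes). Before adjustment, NDUFA5, a matrix arm subunit, was the only one higher. It was at 16.2, 18.5 and 12.7 CPM in control and 18.2, 26.9 and 28.1 CPM in resistant libraries, so that resistant replicate 1 fell within the control range (log2 fold change 0.63 ± 0.18, adjusted p = 0.00731). Its transcripts had the lowest GC content of all members tested, 34.4%. After adjustment it was lower by 0.48 ± 0.10 on the log2 scale (log2 fold change -0.48, adjusted p = 0.00131), and NDUFA5 was the only member whose call turned from one direction to the other.

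The largest falls among supernumerary subunits were those of NDUFB7, NDUFA11, NDUFB11, NDUFA8 and NDUFA13. NDUFB7, a cysteine-motif subunit on the intermembrane-space face, measured 67.5, 76.3 and 82.1 CPM in control and 27.9, 24.4 and 24.2 CPM in resistant libraries. The fall was 2.95-fold (log2 fold change -1.56 ± 0.12, adjusted p = 3.84e-07), and the adjusted value was -0.29 ± 0.08 (adjusted p = 0.00781). NDUFB11, a membrane subunit of the distal arm, was at 92.4, 119.6 and 118 CPM in control and 46.8, 40.0 and 38.1 CPM in resistant libraries (log2 fold change -1.40 ± 0.13, adjusted p = 1.51e-06). Its adjusted value was -0.25 ± 0.08 (adjusted p = 0.0138), and annotated exons of RBM10 cover 44.9% of its exonic bases. Both genes were lower before and after, at a smaller size after. With GC content alone NDUFB7 was at -0.08 and lost its call (adjusted p = 0.388), while NDUFB11 was at -0.26 (adjusted p = 0.0152).

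NDUFA8, a subunit of the intermembrane-space face with the same kind of cysteine motif as NDUFB7, kept most of its fall. It was at 34.6, 32.8 and 35.4 CPM in control and 16.3, 12.9 and 11.4 CPM in resistant libraries, a log2 fold change of -1.34 ± 0.14 (adjusted p = 2.97e-06) and of -1.08 ± 0.10 after adjustment (adjusted p = 3.02e-06). NDUFA11 and NDUFA13 did not keep theirs. NDUFA11, a membrane subunit at the contact with complex III in supercomplexes, was at 77.6, 84.9 and 95.8 CPM in control and 36.3, 26.4 and 31.5 CPM in resistant libraries (log2 fold change -1.45 ± 0.14, adjusted p = 1.52e-06), and its adjusted value was 0.02 ± 0.07 (adjusted p = 0.842). NDUFA13, also known as GRIM-19, was at 80.3, 91.2 and 88.2 CPM in control and 39.9, 31.5 and 32.3 CPM in resistant libraries (log2 fold change -1.32 ± 0.12, adjusted p = 1.33e-06), with an adjusted value of -0.10 ± 0.07 (adjusted p = 0.214). Transcript GC content was 51.4% for NDUFA8, 62.7% for NDUFA11 and 62.0% for NDUFA13.

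**Figure D4:**
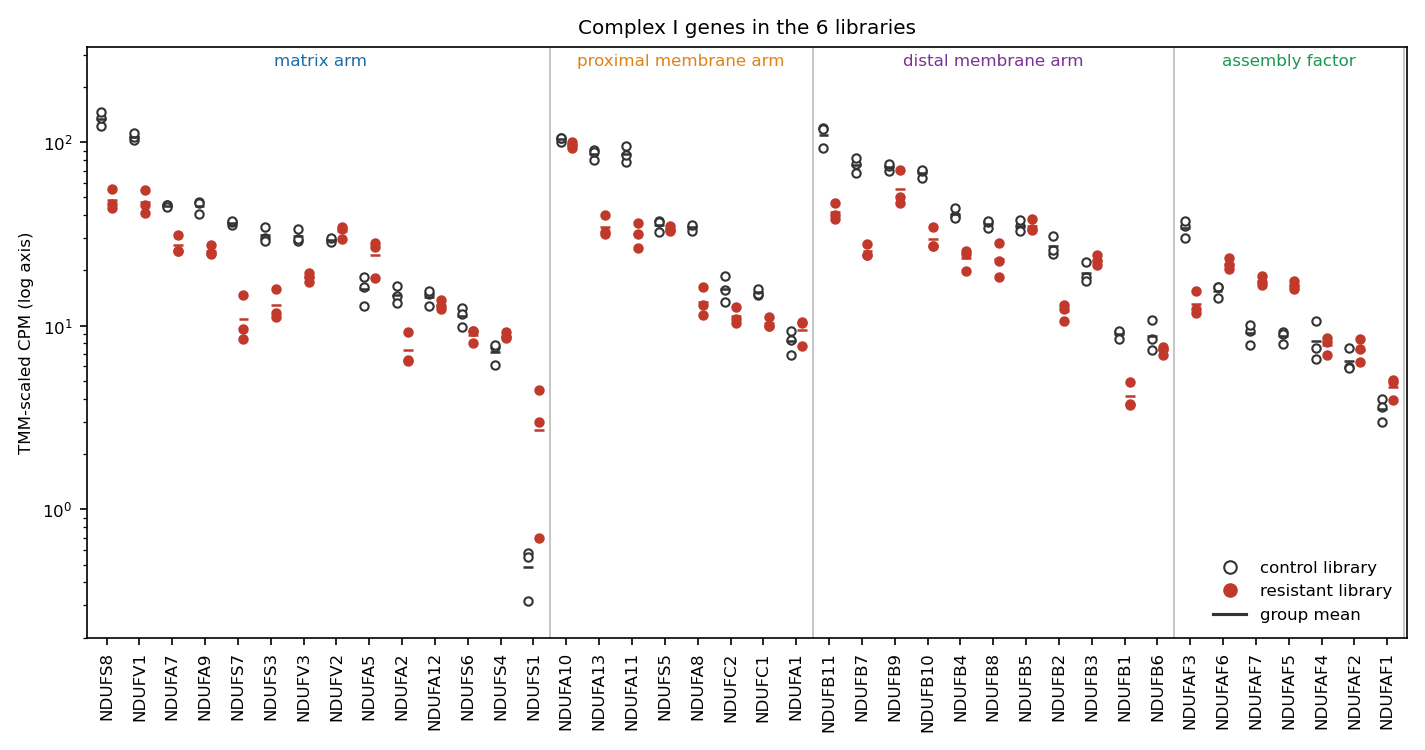
TMM-scaled CPM (y axis, log scale) of 33 tested subunits and 7 assembly factors in the 3 control libraries (open circles) and 3 resistant libraries (filled circles), with group means as short lines, ordered by position in the enzyme and control level. Filled circles lie below open ones for most subunits, NDUFS1 is the lowest member in control at 0.482 CPM, and NDUFAF5, NDUFAF6 and NDUFAF7 have filled circles above the open ones.

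By position in the enzyme, the matrix arm gave 9 lower and 2 higher of 15 before adjustment (median log2 fold change -0.71) and 9 lower and 2 higher after it (-0.36). The proximal membrane arm gave 5 lower and 0 higher of 8 (median -0.52), then 4 lower and 2 higher (-0.18). The distal membrane arm, the part farthest from the matrix arm and made of the NDUFB subunits, gave 8 lower and 0 higher of 11 (median -0.80), then 9 lower and 0 higher (-0.99). Over all genes, 36.9% were lower and 39.3% higher before adjustment, and 32.6% and 34.3% after it. Whether the arms differ was not tested. The distal arm was the only one of the 3 whose median was farther from 0 after adjustment than before.

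Within the distal arm, NDUFB1, NDUFB2, NDUFB4, NDUFB7, NDUFB10 and NDUFB11 were lower by both measures. NDUFB4 was at 39.4, 43.8 and 38.5 CPM in control and 25.6, 24.6 and 19.8 CPM in resistant libraries (log2 fold change -0.80 ± 0.13), and its adjusted value of -1.43 ± 0.10 (adjusted p = 4.52e-07) was the lowest of all members tested. NDUFB10, at -0.17 after adjustment (adjusted p = 0.0428), lost its call with GC content alone (-0.02, adjusted p = 0.799) and with the replicate block added (-0.17, adjusted p = 0.0781). NDUFB3, NDUFB5 and NDUFB6 were called only after adjustment. NDUFB5, for example, was at 34.8, 37.7 and 32.7 CPM in control and 38.1, 33.6 and 33.2 CPM in resistant libraries, with overlapping groups and a log2 fold change of -0.01 ± 0.11, and its adjusted value was -1.09 ± 0.12 (adjusted p = 1.14e-05). Its transcripts had a GC content of 40.1%, which lies in bin 2, where the median of all genes was 1.13. NDUFB8 and NDUFB9 lost their call on adjustment (-0.05 and -0.23).

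In the matrix arm, NDUFA2, NDUFA9 and NDUFV3 joined NDUFS3 and NDUFS8 as lower by both measures. NDUFA9, a subunit at the junction of the arms with a bound nucleotide cofactor, was at 40.8, 47.3 and 46.4 CPM in control and 27.7, 24.6 and 24.8 CPM in resistant libraries, with log2 fold changes of -0.80 ± 0.11 before and -1.30 ± 0.11 after adjustment. NDUFA12, NDUFS4 and NDUFV2 were called lower after adjustment alone, and NDUFA7, NDUFS7 and NDUFV1 were among those called lower before it alone. NDUFS6, a zinc-binding subunit, was not called before adjustment (-0.34 ± 0.15, adjusted p = 0.0552) and was higher after it (0.45 ± 0.14, adjusted p = 0.0149). In the proximal membrane arm, NDUFA8, NDUFC1 and NDUFC2 were lower by both measures, NDUFS5 after adjustment alone, and NDUFA1 (0.73 ± 0.16) and NDUFA10 (0.26 ± 0.06) were higher after adjustment alone. With GC content alone NDUFS5 (-0.10, adjusted p = 0.321) and NDUFA10 (0.13, adjusted p = 0.101) were not called. Annotated exons of RNF113A cover 44.5% of the exonic bases of NDUFA1. Other members also overlapped annotated exons of other genes, among them NDUFB8 (48.5%), NDUFB2 (35.9%), NDUFA7 (33.5%) and NDUFV2 (28.4%). The share was 22.4% for NDUFS3, 21.7% for NDUFAF3 and 21.0% for NDUFA13. On the same strand it was 33.8% for NDUFB8 and 32.3% for NDUFA7. No overlap was found for NDUFB4, NDUFB5, NDUFB7 or NDUFA8.

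The subunits NDUFA3 and NDUFA6 were not tested. NDUFA3 had 4 counts in control replicate 3 and 0 elsewhere, and NDUFA6 had 0 in all 6 libraries, where a count of 0 allows up to 3 counts, or 0.0663 to 0.0707 CPM, for counting error only. Neither value says that the gene is silent, since how reads were assigned to these rows is not given in the sources used here. NDUFAB1, the mitochondrial acyl carrier protein and a subunit that the name rule leaves out, was at 21.3, 24.4 and 23.6 CPM in control and 8.82, 9.00 and 8.20 CPM in resistant libraries. It was lower by both measures, with log2 fold changes of -1.41 ± 0.12 (adjusted p = 9.23e-07) and -1.48 ± 0.10 (adjusted p = 2.84e-07).

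Among assembly factors, NDUFAF7 was the only one higher by both measures. NDUFAF7, a protein arginine methyltransferase, was at 9.31, 10.1 and 7.86 CPM in control and 16.7, 18.7 and 17.4 CPM in resistant libraries, with no overlap (log2 fold change 0.95 ± 0.14, adjusted p = 5.01e-05). The adjusted value was 0.32 ± 0.11 (adjusted p = 0.0212), and leaving out control replicate 1 or 3 or resistant replicate 2 ended the call (0.28, 0.26 and 0.32, adjusted p of 0.0727, 0.0992 and 0.0575), as did GC content alone (0.17, adjusted p = 0.208).

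NDUFAF5, which hydroxylates an arginine of NDUFS7, was at 7.97, 9.26 and 8.97 CPM in control and 15.8, 17.6 and 16.5 CPM in resistant libraries (log2 fold change 0.93 ± 0.13, adjusted p = 3.94e-05). Its adjusted value was 0.24 ± 0.12 and did not pass (adjusted p = 0.102). NDUFAF6, needed for assembly of the quinone module, was at 16.2, 16.2 and 14.1 CPM in control and 23.3, 21.4 and 20.4 CPM in resistant libraries. Its log2 fold change was 0.49 ± 0.12 (adjusted p = 0.00286), and 0.10 ± 0.10 after adjustment (adjusted p = 0.378). For both genes all resistant libraries were above all control libraries before adjustment.

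NDUFAF3 and NDUFAF4 bind each other and act together in building the quinone module, and they differed in level and in change. NDUFAF3 was at 30.1, 34.8 and 37.1 CPM in control and 15.4, 12.3 and 11.8 CPM in resistant libraries (log2 fold change -1.37 ± 0.14, adjusted p = 2.5e-06). The adjusted value was -0.22 ± 0.08 (adjusted p = 0.0385), and leaving out control replicate 2 or 3 or resistant replicate 3 ended the call (-0.24, -0.21 and -0.20, adjusted p of 0.0726, 0.105 and 0.0931). The call was also lost with the replicate block added (-0.21, adjusted p = 0.0696) and with GC content alone (-0.09, adjusted p = 0.389). NDUFAF4 was at 6.59, 10.6 and 7.58 CPM in control and 8.13, 8.53 and 6.93 CPM in resistant libraries, groups that overlap (log2 fold change -0.07 ± 0.19, adjusted p = 0.739), and its adjusted value was -1.23 ± 0.21 (adjusted p = 0.000308). NDUFAF3 transcripts had a GC content of 60.9% and NDUFAF4 transcripts of 36.3%. Per kilobase, NDUFAF3 was the most abundant factor, at 43.0 CPM per kb in control and 16.7 in resistant, beside 3.45 and 3.28 CPM per kb for NDUFAF4, and 14 subunits were above NDUFAF3 in control.

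NDUFAF1 and NDUFAF2 were called neither before nor after adjustment. NDUFAF1, part of the complex that assembles the membrane arm, was at 3.98, 3.59 and 2.98 CPM in control and 5.05, 4.95 and 3.96 CPM in resistant libraries (log2 fold change 0.40 ± 0.20, adjusted p = 0.079), and at 0.18 ± 0.18 after adjustment. Upper-quartile scaling, at 0.47, put NDUFAF1 past the threshold (adjusted p = 0.0463). NDUFAF2, a late factor that binds the nearly complete enzyme, was at 5.95, 7.54 and 5.88 CPM in control and 7.43, 8.41 and 6.31 CPM in resistant libraries (0.19 ± 0.17, adjusted p = 0.324), and at -0.25 ± 0.16 after adjustment. The groups overlapped in both. NDUFAF8, listed under its older symbol C17orf89 and so outside the name rule, had 468, 425 and 450 counts in control and 315, 237 and 249 counts in resistant libraries. Its log2 fold change was -0.70 ± 0.16 (adjusted p = 0.00144) before adjustment and 0.34 ± 0.13 (adjusted p = 0.0395) after it.

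The 3 rows named apart gave no call that held under both measures. NDUFA4 was at 46.1, 56.0 and 41.6 CPM in control and 43.0, 45.8 and 42.6 CPM in resistant libraries (log2 fold change -0.13 ± 0.12, adjusted p = 0.362), and at -1.05 ± 0.11 after adjustment (adjusted p = 8.15e-06). NDUFA4L2, which hypoxia-inducible factor is known to induce, had 56, 58 and 53 counts in control and 18, 36 and 35 counts in resistant libraries (log2 fold change -0.86 ± 0.35, adjusted p = 0.0432). That call was lost without any one library other than resistant replicate 2 (adjusted p of 0.0507 to 0.134), in DESeq2 (0.0677), and after adjustment, where the value was 0.56 ± 0.39 (adjusted p = 0.218). It was also lost with library size alone (0.202), upper-quartile factors (0.0572), no low-count filter (0.0557) and among genes with a GC value (0.0648). Adjusted and without resistant replicate 1, NDUFA4L2 was called higher (0.89, adjusted p = 0.039). NDUFC2-KCTD14 had 0 counts in all 6 libraries.

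The MT-ND genes, the subunits of the same enzyme that mitochondrial DNA encodes, differed in the other direction. All 7 were higher before adjustment, beside 39.3% of all genes, with a median log2 fold change of 0.92. MT-ND1 (listed as ND1) was at 1854, 1350 and 1594 CPM in control and 5861, 6193 and 5861 CPM in resistant libraries (1.90 ± 0.12, adjusted p = 1.33e-07). MT-ND2 (1.69 ± 0.15) and MT-ND3 (0.92 ± 0.10) followed by size of p. After adjustment 4 were higher (57.1%, beside 34.3% of all genes), MT-ND3 was lower (-0.38 ± 0.07) and 2 were not called. The median was then 0.43, with MT-ND1 at 1.74 ± 0.10. The ratio of summed MT-ND to summed nuclear subunit CPM was 7.83, 4.99 and 6.11 in control and 20.2, 25.6 and 24.7 in resistant libraries. MT-ND genes made up 0.665% to 0.990% of all counts in control and 2.13% to 2.34% in resistant libraries.

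Of 14 other complex I assembly factors, 6 were higher and 6 lower before adjustment (median -0.06), and 4 and 4 after it (median 0.02). These shares, 42.9% each way before and 28.6% after, were near those of all genes. Over all genes 39.3% were higher and 36.9% lower before adjustment, and 34.3% and 32.6% after it. NUBPL, which delivers iron-sulfur clusters to complex I, was higher (1.02 ± 0.15) but not after adjustment (0.04 ± 0.12). COA1 (0.67 ± 0.10, then 0.42 ± 0.08) and LYRM2 (1.01 ± 0.19, then 0.48 ± 0.17) were higher by both. DMAC2 (listed as ATP5SL), a factor for the distal membrane arm, was lower by both (-1.20 ± 0.11, then -0.31 ± 0.09), while FOXRED1 (-1.10, then 0.01) and ECSIT (-1.27, then 0.10) were lower before adjustment alone. DMAC1 (listed as TMEM261), also a distal membrane arm factor and chosen here after its values were seen, had 1328, 1304 and 1214 counts in control and 740, 498 and 511 counts in resistant libraries, with log2 fold changes of -1.09 ± 0.15 before and -2.06 ± 0.18 after adjustment (adjusted p = 2.14e-06).

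The iron-sulfur cluster assembly list, which serves the core subunits among many other proteins, gave 9 lower and 2 higher of 16 both before and after adjustment (medians -0.32 and -0.40). The share lower was 56.2%, beside 36.9% of all genes before and 32.6% after adjustment. ISCA2, which acts late in making clusters of the kind most core subunits carry, was at 16.1, 19.4 and 17.6 CPM in control and 6.20, 4.58 and 5.56 CPM in resistant libraries, with log2 fold changes of -1.70 ± 0.16 (adjusted p = 1.25e-06) and -1.59 ± 0.13 (adjusted p = 1.42e-06). FDX2 (listed as FDX1L, -1.65, then -0.40) and GLRX5 (-1.40, then -0.55) were lower by both measures. HSPA9 (0.99, then 0.38), a mitochondrial chaperone, was higher by both.

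Of 11 regulators of nuclear respiratory genes, 6 were higher and 3 lower before adjustment (54.5% and 27.3%, beside 39.3% and 36.9% of all genes, median 0.79). After it 4 were higher and 1 lower (36.4% and 9.09%, beside 34.3% and 32.6% of all genes, median 0.12). The one lower by both was NRF1. It was at 32.9, 37.1 and 38.6 CPM in control and 22.8, 19.0 and 19.5 CPM in resistant libraries (log2 fold change -0.82 ± 0.12, adjusted p = 5.25e-05), and at -0.73 ± 0.10 after adjustment (adjusted p = 3.95e-05). A link between the level of NRF1 and the motif matches described above was not tested. GABPA (1.41, then 0.06) and TFAM (1.27, then 0.15) were higher before adjustment alone. TFB1M (0.91, then 0.30), PPARGC1B (0.85, then 1.97) and GABPB1 (0.79, then 0.34) were higher by both. PPRC1 (-0.91, then -0.09) was lower before adjustment alone, and ESRRA turned from lower (-0.79 ± 0.15) to higher (0.73 ± 0.09).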

How the data were processed

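Total RNA of 3 control and 3 resistant libraries was sequenced, per the labels. The authors deposited raw counts per gene symbol. HISAT2 2.0.4 is named in the submitters' processing notes; for the counting program, strand setting, build and annotation the sources used here give nothing. Pseudogene rows (63, with 62 to 161 counts per library in all) and antisense rows (3) were left out of the members, and copies or overlapping genes may share reads with them. No sample column was left unmapped.

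All 54261 rows were filtered with filterByExpr, scaled by TMM (factors 0.867 to 0.912 in control, 1.12 to 1.14 in resistant libraries) and tested by quasi-likelihood in edgeR 4.0.16 under R 4.3.3, with Benjamini-Hochberg adjustment over all tested genes at 0.05. SE was obtained by dividing the size of the log2 fold change by the root of F. CPM are TMM-scaled, and intervals and floors cover counting error only. GC content and length are medians over GENCODE release 29 basic transcripts, which had values for 85.7% of tested genes. To adjust for them, each library's deviation from the gene mean in log2 CPM (prior count 1) was regressed on natural splines of GC content with 6 and of log2 length with 5 degrees of freedom, and the fit served as offset. A difference in GC content with a biological source would be removed too. Exon overlaps are from the comprehensive annotation of the same release, not from its basic set. Promoter windows are RefSeq's on GRCh38.p14, and windows were printed only where few of their bases lie in annotated exons.

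Per-library values were given for all assembly factors, core subunits and members named apart, the 5 largest rises and falls among other called subunits, members whose call turned, and up to 3 genes per direction (by p) of each other list. A few more were named as examples after their values were seen (NDUFB4, NDUFB5, NDUFA9, DMAC1, PPARGC1B, GABPB1, SNAP25, GAD1, AQP4). Some genes picked by these rules were left out of the text, the plots of single genes and the alternatives for single genes, and are not reported here; they remain in the counts, sums and medians. Members and lists were chosen with earlier results of these data known. Alternatives were other scalings, filters, DESeq2 1.42.0, a replicate block, GC content alone, and leaving out each library. The tests were checked on simulated data, which for the main fit held no GC trend. The main fit recovered 34.3% of 1.5-fold, 76.1% of 2-fold and 93.9% of 4-fold changes. The fit adjusted for GC content and length recovered 46.3%, 76.1% and 90.9%. In each simulation 67 genes were changed by 1.5-fold, 67 by 2-fold and 66 by 4-fold. The tested genes numbered 16217 and 14035, and the false calls 20 and 11. In these libraries 76.2% of genes were called, a far larger share, so the recovery rates may not hold for the tests above. A gene without a call may still have changed.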

Additional observations from a re-analysis of the deposited data

How the results depend on the processing

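Upper-quartile factors gave a subunit median of -0.61. RLE factors, DESeq2 and no filter moved no count of members called by more than 1.5 times and no median beyond the spread between libraries. Subunits higher numbered 9 with library size alone, 1 with a filter of 1 CPM in 3 libraries, 4 among genes with a GC value and 4 after GC and length adjustment. The subunit median was -0.33 with library size alone, -0.60 among genes with a GC value, -0.35 with GC and length and -0.29 with GC alone. Assembly factors higher numbered 5 with library size alone, 1 with GC and length and 0 with GC alone, and 2 were lower with GC and length. Their median was 0.74, 0.10 and -0.059 in that order. Leaving out each library in turn gave 21 to 23 lower and 2 higher subunits with a median of -0.81 to -0.65, the farthest without resistant replicate 1, and 3 higher and 1 lower factor with a median of 0.26 to 0.51. Doing so with GC and length, an alternative added after seeing the data, gave 21 to 24 lower and 2 to 4 higher subunits (median -0.41 to -0.34) and 0 to 1 higher and 1 to 2 lower factors (median 0.011 to 0.16).

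Same-numbered libraries did not deviate together (correlations of -0.13, -0.01 and -0.06). A pairing by number was thus not seen, but deviations within groups of 3 libraries cannot exclude one. With the replicate block the subunits gave 2 higher and 22 lower with a median of -0.69, the factors 3 and 1 with a median of 0.40, and NDUFA4L2 was the only 1 of 43 members tested whose call differed (adjusted p = 0.0644). With GC, length and the replicate block, 4 subunits and 1 factor were higher, with medians of -0.35 and 0.10; 3 of the 43 calls differed from GC and length without the block, those of NDUFAF3 (adjusted p = 0.0696) and NDUFB10 (0.0781), which were lost, and NDUFS7 (0.0396), which was gained.

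Uncalled values changed sign without a GC adjustment: NDUFA4 was 0.21 and NDUFAF4 0.27 with library size alone, and NDUFAF4 was 0.0067 among genes with a GC value, 0.099 without control replicate 2 and 0.0081 without resistant replicate 3. With GC and length, GC alone, and GC and length with the replicate block, NDUFA4L2 gave 0.56, 0.56 and 0.50, NDUFA5 -0.48, -0.69 and -0.48, NDUFV1 0.17, 0.069 and 0.17, and NDUFV2 -0.36, -0.31 and -0.36. NDUFA11 gave 0.018 with GC and length and 0.017 with the block, and NDUFA13 0.014 and NDUFAF6 -0.059 with GC alone. Leaving out libraries with GC and length gave NDUFA11 -0.024 to 0.055, NDUFA4L2 0.32 to 0.89, NDUFA5 -0.56 to -0.40, NDUFV1 0.13 to 0.19 and NDUFV2 -0.42 to -0.30. Without adjustment these 5 gave -1.58 to -1.35, -1.02 to -0.60, 0.46 to 0.79, -1.31 to -1.10 and 0.092 to 0.22. The value of 0.89 for NDUFA4L2, without resistant replicate 1, was called higher (adjusted p = 0.039). The cause of these changes of sign was not tested. Counts limit NDUFS1, NDUFA4L2, NDUFA3 and NDUFA6.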
